A study of Mus musculus with 8 samples.

Results

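MC010 and MC011 are mouse fibrosarcoma lines that carry the same genotype label, IRF8 KO, and that were established from MCA-induced tumors. The comparison of these lines takes 4 of the 8 RNA sequencing libraries of the study and 2 of its 4 lines, with 2 libraries from each line. The libraries were taken by their line labels, and all genes of the deposited table entered. The lines and the gene lists were chosen when earlier results of these data were known. The tumors arose in mice labelled IRF8 KO that had received methylcholanthrene (MCA), 100 ug in peanut oil under the skin, and were taken out about 3 months later. Digested tumor cells were passaged at least 10 times before they were called a stable line, and the lines were grown in RPMI 1640 medium with serum and antibiotics. The other lines of the series, MC654 and MC659, were made in the same way in mice labelled WT. The design thus asks how far 2 lines of one genotype label differ from each other. How many tumors or mice went into a line is not given in the sources used here, and a difference between the lines cannot be told apart from a difference between their tumors, hosts or passages.

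IRF8 is a transcription factor of the interferon regulatory factor family that is best known for directing the development of monocytes and dendritic cells, and it is little expressed in connective tissue cells. MCA is a polycyclic hydrocarbon that is converted by the host into metabolites that bind DNA, and sarcomas raised by it carry many point mutations that differ from tumor to tumor. Such sarcomas grow from mesenchymal cells near the injection site, and their cells keep features of fibroblasts, such as collagen synthesis and the HOX code of the body region from which they came.

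The libraries of MC010 held 116206078 and 74063616 counts and those of MC011 held 94434078 and 77565006. Of the 18768 genes in the table, 16703 had enough counts to be tested. Levels are given as CPM, the counts of a gene per 1000000 counts of the library after TMM scaling, and differences as log2 of MC010 over MC011, so that a positive value is higher in MC010. Mitochondrial genes took between 0.0161% and 0.0209% of the counts. Taken over the tested genes of MC010 or of MC011, Pearson's r between both libraries of one line was 0.993 on the log2 CPM scale, and between libraries of different lines it lay between 0.932 and 0.935, where genes are no independent replicates. No genes of chromosomes X and Y were analysed here. Nothing in the labels says that the 2 libraries of a line came from separate cultures, so the p-values measure only the spread between these libraries, which may be technical.

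The RNA of the targeted gene differed between the lines despite the shared label. The paper genotyped its lines by PCR with primers for the WT and the mutant gene, and reports MC010 and MC011 as IRF8 KO. Irf8 (ENSMUSG00000041515, chromosome 8) had 3.87 and 4.72 CPM in MC010 and 0.330 and 0.127 CPM in MC011. The libraries did not overlap, and the gene was higher in MC010 (log2 difference 4.18, SE 0.35, adjusted p = 1.83e-08, the quasi-likelihood test of edgeR, Benjamini-Hochberg adjusted over the 16703 genes, as for every adjusted p below). In MC654 and MC659, labelled WT, its mean was 0.0178 and 0.00566 CPM. The count covers the whole gene and does not say which exons were read, so it is no check of a deletion of part of the gene, and the lines are called labelled IRF8 KO for that reason. Among 7 tested markers of blood cells, Ptprc, which encodes the pan-leukocyte antigen CD45, had 0.158 and 0.177 CPM in MC010 and 0 and 0 CPM in MC011, and the lysosomal gene Laptm5 had 0.595 and 0.381 CPM in MC010 and 0 and 0.0127 CPM in MC011. Both were called higher in MC010, 1 marker was called higher in MC011 (0 without replicate 2 of either line), and 4 were not called. The called share was 42.9%, beside 32.6% of all genes. With the filter by genotype label, which removes genes expressed in 1 line alone, 0 were higher in MC010. Ptprc and Laptm5 thus entered the test through the MC010 libraries alone, and their direction adds no support. The summed level of the blood cell markers was 8.17 and 7.01 CPM in MC010 and 7.20 and 6.33 CPM in MC011, most of it from Cd68 (6.36 against 5.76 CPM), while Csf1r and Cd74 stayed at 0.319 against 0.377 CPM and 0.00680 against 0.0178 CPM. Whether other cells contributed to the Irf8 reads was not tested. In such bulk libraries, fewer cells of a type and less RNA per cell cannot be told apart.

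A gene was called when its adjusted p was under 0.05 and its log2 difference past 0.59. By this rule 5447 of 16703 genes, 32.6%, differed between the lines, 2728 (16.3%) higher in MC010 and 2719 (16.3%) higher in MC011. These shares are to be read beside every count of list members in this report. The gene lists were chosen with earlier results of these data known, so a higher share in a list is no test of that list. The libraries of the lines did not overlap for 79.3% of the tested genes, so a lack of overlap says little by itself here. A log2 difference past 2 was reached by 936 genes called higher in MC010 and 987 called higher in MC011, and one past 5 by 213 and 256. The median difference over all genes tested was 0.0056, a value that the TMM scaling holds near 0. Called genes made up 34.1% of 13326 tested protein-coding genes and 39.1% of 578 long intergenic RNAs. Among 1018 processed pseudogenes, 102 were higher in MC010 and 36 in MC011.

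**Figure D1:**
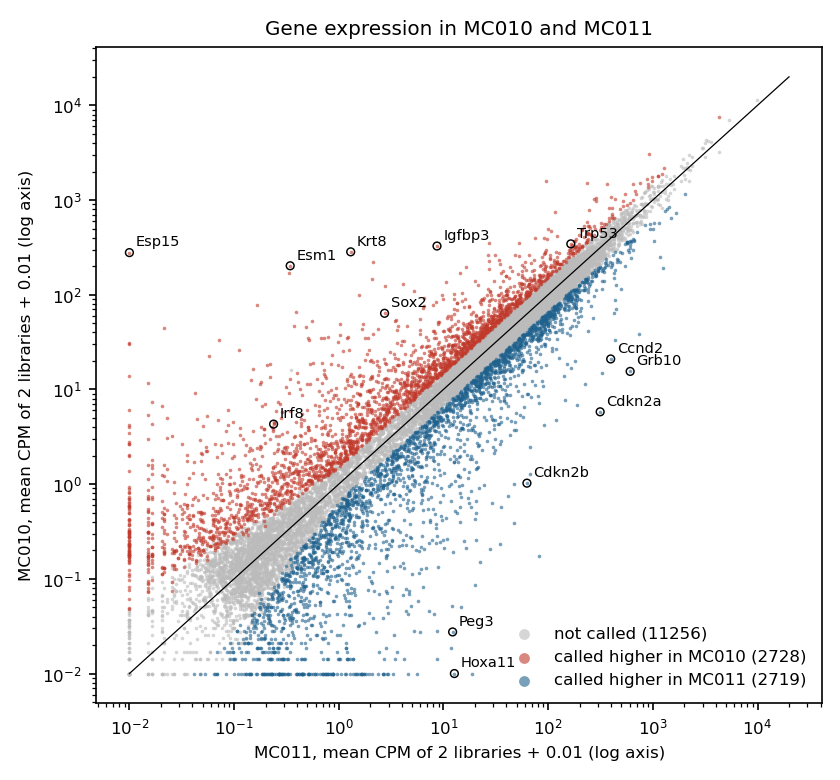
Each point is 1 of 16703 tested genes, with its mean CPM in MC011 on the x axis and in MC010 on the y axis, both on log axes, and coloured by the call. Called genes lie on both sides of the diagonal in nearly equal numbers (2728 and 2719), and labelled genes such as Esp15 and Hoxa11 lie at 0 in the libraries of one line.

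Both lines carried mesenchymal RNA. Vim, which encodes the intermediate filament protein vimentin of mesenchymal cells, had 7390.1 and 6723 CPM in MC010 and 5513 and 5242 CPM in MC011 and was not called (log2 difference 0.39, SE 0.05, adjusted p = 3.42e-06). The summed level of 13 fibroblast markers was 10436 and 9711 CPM in MC010 and 8931 and 8616 CPM in MC011, most of it from Vim. Within that list 3 of 12 tested markers were higher in MC010 and 6 in MC011, a called share of 75% beside 32.6% of all genes. The type I collagen chains went opposite ways, since Col1a1 was at 87.5 against 439 CPM and Col1a2 at 780.2 against 246 CPM. Thy-1, a surface antigen of many fibroblasts (Thy1, 12.3 against 70.1 CPM), the receptor gene Pdgfra (71.3 against 444 CPM) and decorin (Dcn, 10.7 against 89.9 CPM) were higher in MC011, whereas the homeobox gene Prrx1 (1023 against 438 CPM) and fibroblast activation protein (Fap, 4.18 against 0.731 CPM) were higher in MC010.

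Markers of other lineages were mostly low, with a few that separated the lines sharply. Krt8, a keratin of simple epithelia, had 294 and 274 CPM in MC010 and 1.30 and 1.28 CPM in MC011 (log2 difference 7.78, SE 0.085, adjusted p = 4.28e-19), and its partner Krt18 had 272 and 257 CPM in MC010 and 30.3 and 32.4 CPM in MC011 (log2 difference 3.08, SE 0.059, adjusted p = 1.77e-16). Neither gene's libraries overlapped between the lines. The summed level of the epithelial markers, nearly all of it from these keratins, was 567 and 532 CPM in MC010 and 34.0 and 35.8 CPM in MC011. The defining epithelial adhesion genes did not go with them: Epcam was at 0.340 against 0.993 CPM, E-cadherin (Cdh1) at 0.00875 against 0.310 CPM, and 4 more of the 11 markers were not analysed here. Myod1, the master regulator of skeletal muscle, had 2.46 and 2.78 CPM in MC010 and 0 and 0 CPM in MC011, and was at least 75.9-fold higher in MC010 against a floor of 3 counts per library. In all, 8 of 9 tested skeletal muscle markers were higher in MC010, among them the muscle cadherin Cdh15 (1.98 against 0 CPM) and titin (Ttn, 2.61 against 0.119 CPM), and troponin T1 (Tnnt1) was higher in MC011, all at low levels that summed to 13.5 and 12.8 CPM in MC010 and 1.79 and 1.86 CPM in MC011. Of the tested muscle markers 100% were called, beside 32.6% of all genes. With the filter by genotype label, which removes genes expressed in 1 line alone, 4 were higher in MC010 and 0 in MC011. The direction of the muscle markers that this filter removes was fixed in advance and adds no support. The myogenic factors Myog, Myf5, Myf6 and Pax7 were not analysed here. The adipocyte regulators Pparg (0.778 against 4.35 CPM) and Cebpa (0.392 against 7.37 CPM) and the cartilage regulator Sox9 (34.1 against 121 CPM) were higher in MC011, and the bone regulator Runx2 (121 against 60.7 CPM) in MC010.

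Cell cycle control separated the lines at the INK4 locus. Cdkn2a encodes the CDK4 inhibitor p16INK4A and, from another reading frame, p19ARF, which stabilizes p53, and the neighbouring Cdkn2b encodes the related inhibitor p15INK4B. Cdkn2a (ENSMUSG00000044303, chromosome 4) had 6.60 and 4.99 CPM in MC010 and 342 and 286 CPM in MC011, and Cdkn2b had 1.08 and 0.952 CPM in MC010 and 63.4 and 62.03 CPM in MC011. Both were lower in MC010 in every library, Cdkn2a with a log2 difference -5.74, SE 0.13, adjusted p = 1.54e-12 and Cdkn2b with a log2 difference -5.93, SE 0.087, adjusted p = 7.88e-18. The means in MC654 and MC659 were 354 and 325 CPM for Cdkn2a and 60.3 and 67.3 CPM for Cdkn2b. The reads do not separate the transcripts of p16INK4A and p19ARF. The neighbours of the pair on chromosome 4 did not all go the same way. Mtap, an enzyme of methionine salvage that lies just before them, was at 1037 against 276 CPM (log2 difference 1.91, SE 0.047, adjusted p = 3.26e-15), the noncoding Gm12606, Gm12609 and Gm12610 around them were lower in MC010 (-2.15, -9.12 and -4.42), while Klhl9 and Focad farther out were not called. On the same side of the pair as those genes, Hacd4, whose gene model overlaps that of Focad, was at 2.05, Mir31 at 1.20 and Wincr1 at 0.91, all called higher in MC010. DNA was not measured here, and whether the locus was lost or silenced in MC010 was not tested.

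The partners of these inhibitors in the RB pathway moved unequally. Ccnd2, encoding cyclin D2, had 20.5 and 21.5 CPM in MC010 and 407 and 385 CPM in MC011 and was lower in MC010 by the widest margin of the D cyclins (log2 difference -4.24, SE 0.053, adjusted p = 1.97e-18). Ccnd1 stood at 839 against 974 CPM and Ccnd3 at 124 against 105 CPM, and neither was called. Among the kinases Cdk6 was higher in MC011 (66.6 against 105 CPM) and Cdk4 was not called (645 against 598 CPM). The remaining INK4 gene that was called, Cdkn2c, was higher in MC010 (86.7 against 27.4 CPM), as was E2f1 (108 against 62.2 CPM), a transcription factor that RB holds in check. Rb1 had 14.6 against 10.4 CPM and was not called. Of all 17 tested members of this list, 4 were higher in MC010 and 5 in MC011, a called share of 52.9% beside 32.6% of all genes.

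Trp53, which encodes p53, had 352 and 337 CPM in MC010 and 168 and 161 CPM in MC011. It was higher in MC010 (log2 difference 1.06, SE 0.049, adjusted p = 8.7e-12), and its mean in MC654 and MC659 was 31.3 and 29.8 CPM. Of 21 p53 target genes, 3 were higher in MC010, 5 in MC011 (3 without replicate 1 of MC011) and 13 were not called, with a median log2 difference of -0.14 beside 0.0056 over all genes, and the called share of 38.1% lay near the 32.6% of all genes. The 3 were the CDK inhibitor Cdkn1a (31.2 and 26.2 CPM in MC010 and 7.05 and 7.46 CPM in MC011), Trp53inp1 (9.34 against 1.98 CPM) and Plk2 (139 against 82.3 CPM). Death receptor Fas (1.47 against 3.33 CPM), the BH3-only gene Bbc3 (3.70 against 7.36 CPM) and Ei24 (58.3 against 90.4 CPM) were higher in MC011. Mdm2, the p53 ubiquitin ligase, was at 87.2 against 63.4 CPM and Bax at 35.6 against 45.8 CPM, neither called. Whether Trp53 carried mutations in either line was not tested.

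Fewer proliferation genes were called, 14.3% of 21 members beside 32.6% of all genes. Top2a (1245 against 671 CPM), Bub1 (162 against 104 CPM) and Mcm5 (301 against 199 CPM) were called higher in MC010 and 0 higher in MC011. Mcm5 lay next to the size threshold and fell below it without replicate 1 of MC010 (0.54 on the log2 scale) or without replicate 2 of MC011 (0.58). The median log2 difference was 0.35, and 17 of the 21 had an adjusted p under 0.05 with a positive difference, most of them under the size threshold. Mki67, the gene of the proliferation antigen Ki-67, had 470.4 and 503 CPM in MC010 and 490.1 and 487 CPM in MC011, and its libraries overlapped between the lines.

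**Figure D2:**
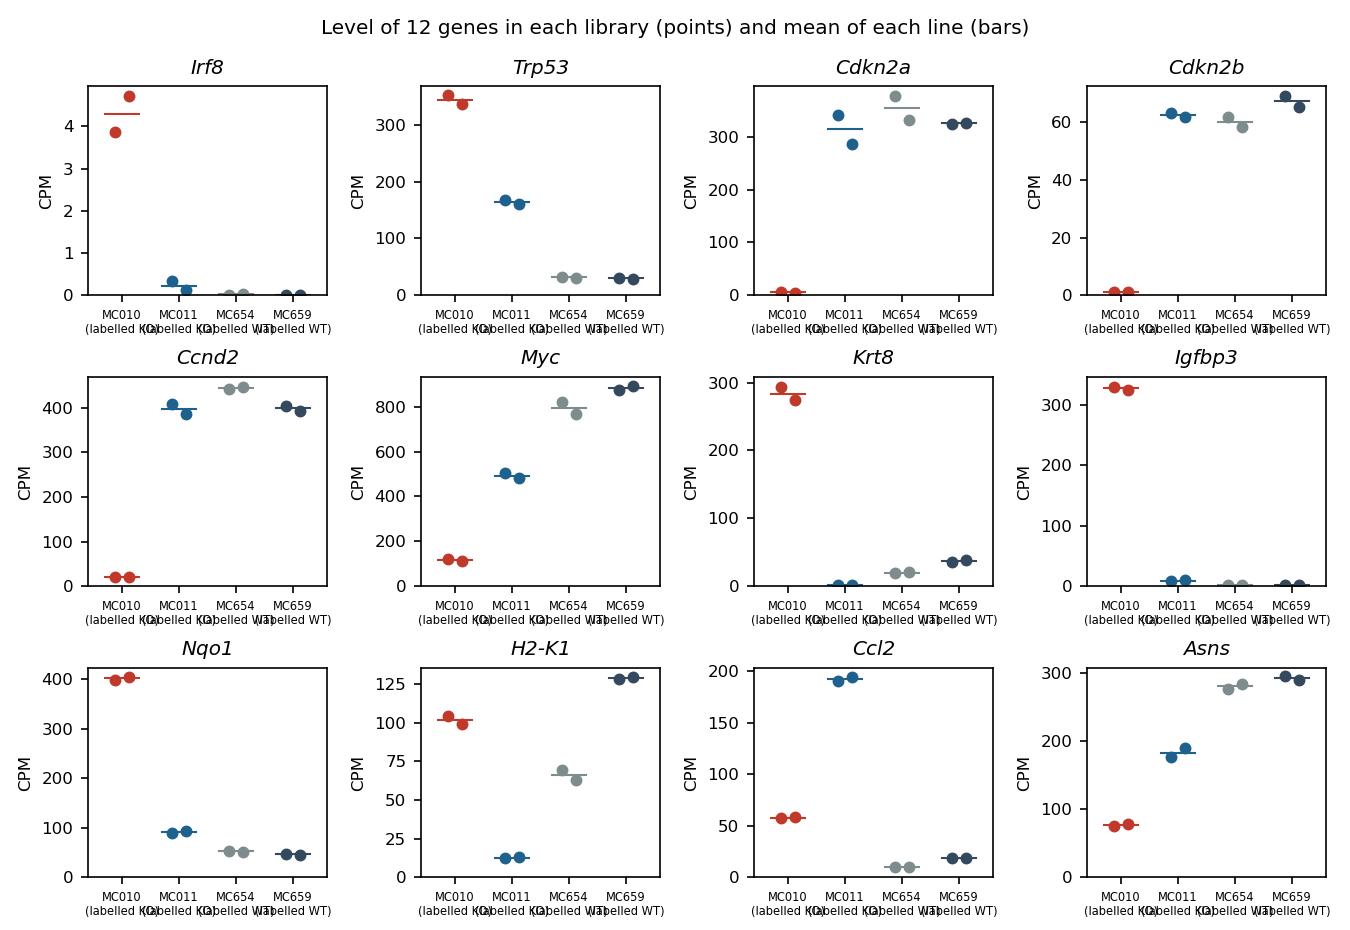
CPM of 12 genes on the y axis in each of the 8 libraries (points), with the mean of each line as a bar; the MC654 and MC659 libraries are shown beside MC010 and MC011. Cdkn2a, Cdkn2b and Ccnd2 were lowest in the 2 MC010 libraries, and Krt8, Igfbp3 and Nqo1 were highest there.

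HOX genes had the lowest median of the 23 gene lists examined, and the posterior ones lay lowest. HOX genes are ordered along 4 chromosomal clusters in the order in which they are used from head to tail and along the limbs, and fibroblasts keep the code of their origin in culture. Of 33 tested HOX genes, 75.8% were called, 22 higher in MC011 and 3 in MC010, 8 were not called, and the median log2 difference was -1.35. Split by paralog number after the values were seen, all 12 tested genes of paralogs 9 to 13 were higher in MC011, with a median of -5.32, and among the 21 of paralogs 1 to 8, 10 were higher in MC011, 3 in MC010 and 8 were not called, with a median of -0.61. Among the 12, Hoxa13, Hoxb13, Hoxc13, Hoxd10 and Hoxd13 passed the filter on low counts only through the MC011 libraries. Their direction was thus fixed by the filter and adds no support. With the filter by genotype label, 17 HOX genes were higher in MC011. Hoxb9 had 0.149 and 0.177 CPM in MC010 and 81.1 and 83.3 CPM in MC011 (log2 difference -8.99, SE 0.12, adjusted p = 3.06e-18). Hoxa9 had 0.543 and 0.435 CPM in MC010 and 20.3 and 20.2 CPM in MC011, and Hoxa10 had 0.639 and 0.490 CPM in MC010 and 13.9 and 14.99 CPM in MC011. In both libraries of MC010 these 3 genes were under 1 CPM, and no library of one line overlapped with the other.

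Hoxa11, a gene of the middle limb segment, had no read in either library of MC010 and 12.6 and 12.8 CPM in MC011, and was thus at least 379-fold higher in MC011. Its antisense partner Hoxa11os overlaps it and went the same way (0 against 3.26 CPM); since the strand setting of the counting is not given in the sources used here, reads of the pair may not be fully separated. Some posterior genes were low in both lines but above the floor in MC011. Hoxa13 was at 0.0578 against 1.43 CPM, Hoxd13 at 0.0112 against 1.16 CPM, Hoxc13 at 0.00438 against 1.19 CPM and Hoxd10 at 0.00438 against 1.02 CPM. The smallest of the posterior differences were those of Hoxc9 (7.23 against 15.95 CPM) and Hoxd9 (5.13 against 13.5 CPM). Among anterior genes, Hoxa2 (3.38 against 0.767 CPM), Hoxc5 (24.5 against 14.99 CPM) and Hoxc6 (78.99 against 47.8 CPM) were the 3 higher in MC010, while Hoxb7 (25.4 against 27.02 CPM) was not called. The gene model of Hoxc5 overlaps those of Hoxc6 and Hoxc9, so their reads may not be fully separated. In the WT-labelled lines the values did not follow either line throughout: Hoxa9 was at 28.9 and 29.1 CPM there, and Hoxa11 at 0.0945 and 0.212 CPM.

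**Figure D3:**
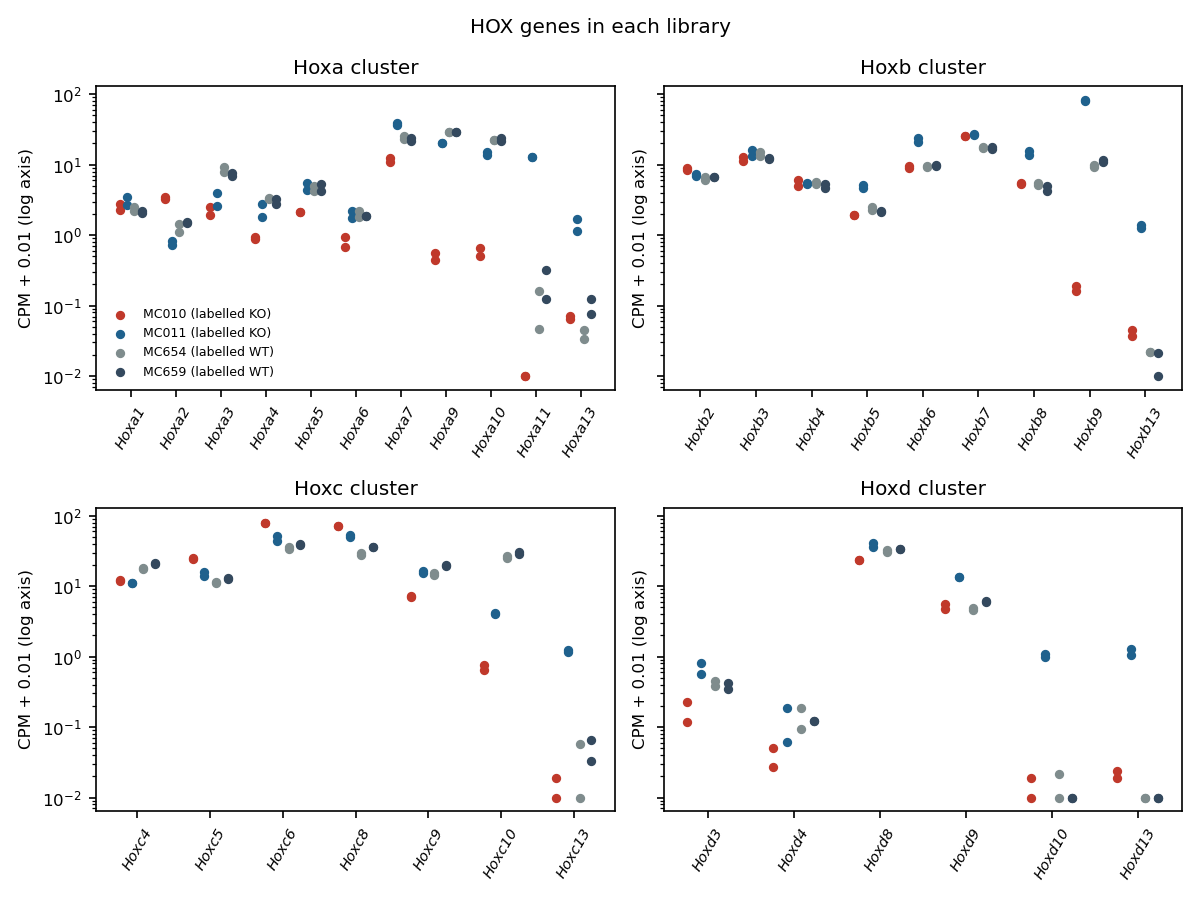
CPM plus 0.01 on a log axis of the HOX genes of each cluster, in paralog order on the x axis, with a point for each of the 8 libraries coloured by line. From paralog 9 on the MC010 points lie below those of MC011 in every cluster, and for paralogs 1 to 8 the order varies.

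Other factors that pattern the limbs and the body wall also favoured MC011, with 15 of 26 tested genes higher there, 4 higher in MC010 and a median of -0.80. The called share was 73.1%, beside 32.6% of all genes. With the filter by genotype label, which removes genes expressed in 1 line alone, 10 were higher in MC011. Pitx1, the hindlimb selector, had 0.254 and 0.150 CPM in MC010 and 19.4 and 13.1 CPM in MC011 (log2 difference -6.25, SE 0.27, adjusted p = 3.92e-11). Foxd1 had no read in MC010 and 2.71 and 2.71 CPM in MC011, at least 80.7-fold higher in MC011, though with DESeq2 its adjusted p was 0.057. Tbx15 (67.6 against 201 CPM), Osr1 (3.44 against 22.4 CPM) and Eya1 (0.164 against 2.82 CPM) were higher in MC011 as well. The HOX cofactors Meis1 (27.04 against 12.2 CPM) and Meis2 (178 against 44.9 CPM) were among those higher in MC010. Tbx3 was not called, at 45.3 against 44.1 CPM.

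Imprinted genes, which are read from 1 parental copy and tend to differ between clones, included some members with wide differences. Of 27 tested, 14 were higher in MC011 and 5 in MC010, with a median of -0.62 and a called share of 70.4%, beside 32.6% of all genes. With the filter by genotype label, which removes genes expressed in 1 line alone, 11 were higher in MC011 and 4 in MC010. The direction of the imprinted genes that this filter removes was fixed in advance and adds no support. Grb10, an adaptor that restrains insulin and IGF receptor signalling, had 15.3 and 15.6 CPM in MC010 and 602 and 612 CPM in MC011 (log2 difference -5.29, SE 0.066, adjusted p = 1.97e-18). Peg3, a zinc finger gene, had 0.0350 and 0 CPM in MC010 and 12.4 and 12.1 CPM in MC011 and was higher in MC011 (log2 difference -9.08, SE 0.35, adjusted p = 8.77e-13). Nnat had no read in MC010 and 2.95 and 2.75 CPM in MC011. Plagl1 (1.85 against 18.9 CPM) and the noncoding RNAs Meg3 (0.543 against 4.52 CPM) and Rian (1.01 against 7.73 CPM) of one cluster on chromosome 12 were higher in MC011. Genes of the Prader-Willi region went the other way: Ndn had 50.2 and 48.5 CPM in MC010 and 9.21 and 8.60 CPM in MC011, Snrpn had 5.47 and 4.60 CPM in MC010 and 0.114 and 0.431 CPM in MC011, and Magel2 was at 0.546 against 0.0253 CPM. Dlk1 was not called at 40.6 against 36.1 CPM, against 1281 and 1199 CPM in MC654 and MC659.

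Receptors for platelet-derived growth factors were lower in MC010, where several EGF-family ligands were higher. Pdgfra had 70.3 and 72.4 CPM in MC010 and 443 and 446 CPM in MC011 (log2 difference -2.64, SE 0.055, adjusted p = 5.37e-16), and Pdgfrb had 99.8 and 95.2 CPM in MC010 and 277 and 274 CPM in MC011 (log2 difference -1.50, SE 0.051, adjusted p = 1.99e-13). Of their ligands, Pdgfc was higher in MC011 (17.2 against 67.7 CPM) and Pdgfd in MC010 (18.7 against 0.526 CPM). EGF-family ligands bind receptors such as EGFR and ERBB4 and drive growth. Areg, amphiregulin, had 36.3 and 34.1 CPM in MC010 and 1.95 and 1.82 CPM in MC011; its gene identifier is paired with another symbol, Mcub, in the deposited table, and with Areg in the reference. Ereg, epiregulin, had 87.2 and 92.9 CPM in MC010 and 22.2 and 24.7 CPM in MC011, Btc, betacellulin, had 41.3 and 45.8 CPM in MC010 and 2.52 and 2.19 CPM in MC011, and Hbegf had 102 and 98.3 CPM in MC010 and 33.4 and 32.7 CPM in MC011. Areg, Ereg and Btc lie on chromosome 5 within a run of 6 neighbouring genes all called higher in MC010. Their receptor gene Egfr was low and lower in MC010 (1.69 against 4.80 CPM). The hepatocyte growth factor gene Hgf (15.5 against 2.42 CPM) and its receptor Met (215 against 120.5 CPM) were both higher in MC010, and so was Igf1 (2.01 against 0.118 CPM). Gas6 (0.201 against 10.004 CPM) and Kit, which had no read in MC010 (0 against 0.814 CPM), were higher in MC011, while the GAS6 receptor Axl was not called (1309 against 1598 CPM). In the whole list of 32 tested genes, 7 were higher in MC010 and 12 in MC011, with a median of -0.26. That is a called share of 59.4%, beside 32.6% of all genes.

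Genes that ERK signalling induces were higher in MC010 more often than in MC011, 9 of 18 against 2, with 7 not called, with a median of 0.60. Of this list 61.1% was called, beside 32.6% of all genes. The phosphatase Dusp6, which removes phosphate from ERK, had 395 and 380.0 CPM in MC010 and 98.3 and 98.4 CPM in MC011 (log2 difference 1.98, SE 0.047, adjusted p = 2.67e-15). The feedback inhibitors Spry4 (68.8 against 26.6 CPM), Spred1 (497 against 211 CPM) and Spred3 (61.7 against 20.3 CPM) and the ETS factors Etv1 (91.6 against 42.6 CPM), Etv4 (159 against 83.7 CPM) and Etv5 (177 against 112 CPM) were higher too. Spry1 (4.54 against 8.74 CPM) was higher in MC011. The widest exception was Myc, with 119 and 111 CPM in MC010 and 503 and 482 CPM in MC011 (log2 difference -2.10, SE 0.051, adjusted p = 3.1e-15), and the noncoding Pvt1 next to it on chromosome 15 had 16.2 and 17.5 CPM in MC010 and 160.2 and 167 CPM in MC011 (log2 difference -3.28, SE 0.056, adjusted p = 4e-17). Both lie in a run of 7 neighbouring genes called higher in MC011 that begins at Gm7086. The mean of Myc was 794 and 885 CPM in MC654 and MC659. Phosphorylated ERK was not measured here.

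Secreted antagonists of BMP and activin were a further contrast. Grem1 had 957 and 999 CPM in MC010 and 279 and 288 CPM in MC011 (log2 difference 1.79, SE 0.045, adjusted p = 5.11e-15) and Fst, follistatin, which binds activins, had 394 and 407 CPM in MC010 and 73.5 and 75.2 CPM in MC011 (log2 difference 2.43, SE 0.059, adjusted p = 3e-15). The activin subunit gene Inhba had 192 and 200.4 CPM in MC010 and 15.03 and 17.9 CPM in MC011. All 3 were higher in both libraries of MC010 than in either of MC011. Bmp6 (4.47 against 35.5 CPM) and Ltbp2, a matrix protein of the latent TGF-beta binding family (39.3 and 36.7 CPM in MC010 and 755 and 714 CPM in MC011), were higher in MC011, as was noggin, Nog, with no read in MC010 and a mean of 0.786 CPM in MC011. The TGF-beta-induced gene Tgfbi (413 against 121 CPM) and the receptor Tgfbr1 (106 against 62.04 CPM) were higher in MC010. The list as a whole was even, 9 of 29 higher in each line with a median of 0.045. Its called share was 62.1%, beside 32.6% of all genes. With the filter by genotype label, 9 were higher in MC010 and 7 in MC011.

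The Wnt pathway list leaned to MC011, with 18 of 34 tested genes higher there, 7 higher in MC010 and a median of -1.09. Its called share was 73.5%, beside 32.6% of all genes. With the filter by genotype label, which removes genes expressed in 1 line alone, 14 were higher in MC011 and 7 in MC010. The direction of the Wnt genes that this filter removes was fixed in advance and adds no support. Ligands were split: Wnt10b (8.69 and 7.81 CPM in MC010 and 69.97 and 67.9 CPM in MC011) and Wnt5a (23.98 against 54.7 CPM) were higher in MC011, and Wnt5b (13.1 against 5.21 CPM), Wnt7b (22.2 against 11.8 CPM) and Wnt10a (3.66 against 0.0735 CPM) in MC010. The extracellular inhibitor Sfrp2 had 0.333 and 0.109 CPM in MC010 and 34.5 and 35.1 CPM in MC011 (log2 difference -7.15, SE 0.19, adjusted p = 8.03e-15), whereas the inhibitor Dkk2 had 513 and 503 CPM in MC010 and 245 and 253 CPM in MC011 (log2 difference 1.03, SE 0.048, adjusted p = 1.08e-11). R-spondins, which strengthen Wnt signals, were higher in MC011 at low levels (Rspo2, 0.120 against 4.17 CPM). The noncanonical receptor Ror2 was at 11.1 against 75.1 CPM. Axin2, the usual target of the canonical pathway, was at 0.628 against 1.06 CPM and not called, and the mediators Tcf7 (45.3 against 16.8 CPM) and Lef1 (1.96 against 4.48 CPM) went opposite ways.

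Collagen genes were mostly higher in MC011, 13 of 21 tested against 2 higher in MC010 (71.4% called), with a median of -0.93. With the filter by genotype label, 11 were higher in MC011 and 2 in MC010. Col6a3, a chain of the microfibrillar collagen VI, had 15.1 and 15.01 CPM in MC010 and 340.1 and 316 CPM in MC011 (log2 difference -4.45, SE 0.058, adjusted p = 2.7e-18), and its partner chains Col6a1 (361 against 585 CPM) and Col6a2 (112 against 284 CPM) were also higher in MC011. Col1a1 had 93.2 and 81.7 CPM in MC010 and 473 and 405 CPM in MC011 and Col5a1 117 and 111 CPM in MC010 and 342 and 314 CPM in MC011. The exceptions were Col1a2, with 803 and 757 CPM in MC010 and 253 and 238 CPM in MC011 (log2 difference 1.67, SE 0.053, adjusted p = 9.66e-14), and Col18a1, with 148 and 134 CPM in MC010 and 36.6 and 38.2 CPM in MC011. Col3a1 was not called (826 against 1213 CPM).

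The enzymes and scaffolds that bind collagen and elastic fibers leaned the same way, with 12 of 25 tested matrix genes higher in MC011, 7 higher in MC010, 6 not called and a median of -0.81. Of these matrix genes 76% were called, beside 32.6% of all genes. Fibrillin-1 (Fbn1) had 62.7 and 65.4 CPM in MC010 and 438 and 419 CPM in MC011, and fibrillin-2 (Fbn2) had 74.9 and 73.8 CPM in MC010 and 16.3 and 14.8 CPM in MC011. These related fibrillins thus went opposite ways. The cross-linking oxidases Lox (203 against 539 CPM), Loxl1 (41.4 against 238 CPM), Loxl2 (25.1 against 77.2 CPM) and Loxl3 (108 against 192 CPM) were all higher in MC011. Fn1, fibronectin, was at 1154 against 2017 CPM. In MC010, Thbs2 had 1520.2 and 1501 CPM in MC010 and 237 and 234 CPM in MC011 (log2 difference 2.68, SE 0.043, adjusted p = 2.32e-17), Thbs1 was at 1078 against 401 CPM, and Igfbp3, a secreted carrier of insulin-like growth factors, had 329 and 325 CPM in MC010 and 7.79 and 9.55 CPM in MC011 (log2 difference 5.24, SE 0.086, adjusted p = 2.48e-17). The matricellular genes Ctgf (56.6 against 114 CPM) and Nov (5.09 against 24.2 CPM) were higher in MC011 and Cyr61 (182 against 165 CPM) was not called.

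Among matrix proteases and their inhibitors, 9 of 21 were higher in MC011 and 4 in MC010, with a median of -0.26 and 61.9% called, beside 32.6% of all genes. The inhibitors Timp2 (574 against 1141 CPM), Timp3 (113 against 224 CPM) and Serpine2 (7.19 against 82.5 CPM) were higher in MC011, and stromelysin-2 (Mmp10, 25.9 against 1.95 CPM), urokinase (Plau, 35.2 against 21.7 CPM) and the tissue activator Plat (69.6 against 33.02 CPM) in MC010. Mmp2 (268 against 209 CPM) and Mmp14 (291 against 276 CPM) were not called. Contractile genes of smooth muscle leaned to MC010, 7 of 14 higher there and 1 in MC011 (57.1% called), with a median of 0.76. Synpo2, an actin-bundling protein, had 98.3 and 102 CPM in MC010 and 1.26 and 1.81 CPM in MC011 (log2 difference 6.05, SE 0.13, adjusted p = 9.49e-16), Acta2 was at 146 against 72.9 CPM, Tagln at 13.8 against 6.90 CPM and Tpm1 at 1791 against 1132 CPM, whereas Myl9 was higher in MC011 (5.80 against 9.94 CPM). The mesenchymal cadherins Cdh2 (73.6 against 182 CPM), Cdh11 (2.69 against 20.8 CPM) and Cdh13 (56.7 against 149 CPM) and the transcription factors Snai2 (24.9 against 42.1 CPM) and Zeb2 (43.1 against 93.4 CPM) were among the 9 of 16 cadherin and EMT genes higher in MC011, and 4 were higher in MC010. Of the tested cadherin and EMT genes 81.25% were called, beside 32.6% of all genes. Twist1 was not called (52.02 against 50.6 CPM).

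Targets of NRF2 were higher in MC010. NRF2 is a transcription factor that is released from its inhibitor KEAP1 under oxidative stress and switches on genes of glutathione synthesis, thiol reduction and NADPH supply. Of 22 members, 15 (68.2%) were higher in MC010, 0 in MC011 and 7 were not called, with a median of 0.86. Nqo1, a quinone reductase, had 399 and 405 CPM in MC010 and 88.8 and 93.3 CPM in MC011 (log2 difference 2.14, SE 0.049, adjusted p = 1.38e-15). Slc7a11, the cystine transporter that feeds glutathione synthesis, had 124 and 132 CPM in MC010 and 22.5 and 20.2 CPM in MC011 (log2 difference 2.58, SE 0.063, adjusted p = 3.4e-15). Gclc (181 against 73.996 CPM) and Gclm (164 against 99.97 CPM), the subunits of the ligase that makes the glutathione precursor, Gsta4 (103 against 14.99 CPM), Blvrb (89.1 against 22.9 CPM), Cbr3 (19.3 against 5.26 CPM), Srxn1 (318 against 166 CPM), Prdx1 (1487 against 643 CPM) and Txnrd1 (979 against 517 CPM) were higher as well. Hmox1, heme oxygenase, was at 22.2 against 29.5 CPM and not called, and neither were Gsr (148 against 128 CPM) and Ugdh (267 against 338 CPM). The means in MC654 and MC659 were 52.3 and 46.7 CPM for Nqo1 and 29.4 and 35.4 CPM for Slc7a11.

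Promoter windows of these members were searched for the core of the antioxidant response element that NRF2 binds, TGACNNNGC on either strand, in the 250 bases before the start site (RefSeq sequences of GRCm38.p6). The motifs of this and the following searches were chosen after the expression values had been seen. A match was found in 4 of 17 members with a window (Gclm, Prdx1, Txnrd1 and Ugdh), of which Ugdh was not called, and in 13.9% of 11022 tested genes with a window. Matches are short and frequent, and none shows binding. Of the called members, those with a match are printed 5′ to 3′ on the strand of the gene, with the match in capitals, to show each match in its surroundings.
Gclm, chr3:122245378-122245476, plus strand: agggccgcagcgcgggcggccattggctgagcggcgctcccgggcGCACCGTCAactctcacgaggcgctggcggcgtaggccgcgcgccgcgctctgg
Prdx1, chr4:116685421-116685519, plus strand: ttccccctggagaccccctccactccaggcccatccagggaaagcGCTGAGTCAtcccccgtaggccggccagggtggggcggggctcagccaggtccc
Txnrd1, chr10:82859069-82859167, plus strand: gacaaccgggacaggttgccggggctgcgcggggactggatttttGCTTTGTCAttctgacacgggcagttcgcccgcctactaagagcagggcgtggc

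Ferroptosis is cell death by iron-driven lipid peroxidation, which GPX4 and glutathione hold back. Of 36 tested genes of that list, 10 were higher in MC010, 2 in MC011 and 24 were not called, with a median of 0.039 and a share of called genes (33.3%) close to that of all genes. Of the called members, Slc7a11, Gclc, Gclm and Fth1 (1744 against 988 CPM) are shared with the NRF2 list. Gpx4 had 189.9 and 182 CPM in MC010 and 184 and 186 CPM in MC011 and was not called (log2 difference 0.0057, SE 0.05, adjusted p = 0.933). Among members outside the NRF2 list, Gch1, which makes the cofactor tetrahydrobiopterin (11.9 against 2.38 CPM), Acsl6 (35.8 against 10.3 CPM), the iron exporter Slc40a1 (2.21 against 0.249 CPM) and Ptgs2, cyclooxygenase-2 (483 and 511 CPM in MC010 and 96.3 and 104 CPM in MC011), were higher in MC010. Chac1, which degrades glutathione, was higher in MC011 (11.6 against 26.4 CPM), and it was the 1 of that direction without replicate 2 of MC011. Aifm2, which reduces coenzyme Q, was not called (18.97 against 13.02 CPM). Cell death was not measured in these libraries.

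Sterol synthesis genes were higher in MC010 in 14 of 21 members (66.7%) and higher in MC011 in 0, with a median of 0.73, and 20 of the 21 had an adjusted p under 0.05 with a positive difference. Hmgcs1 (296 against 169.6 CPM), an enzyme on the way to mevalonate, Cyp51 (249 against 121 CPM), Msmo1 (201 against 84.02 CPM), Lss (152 against 73.6 CPM) and Acat2 (129 against 56.4 CPM) were higher in MC010. The difference was 1.26 on the log2 scale for Msmo1 and 0.80 for Hmgcs1. Srebf2, the transcription factor of the pathway, was not called (367 against 364 CPM). The core of the sterol regulatory element, TCACNCCAC on either strand, was found in 1 of 13 members with a window and in 1.28% of tested genes, and the window with that match is printed in the same way.
Hmgcs1, chr13:119690169-119690267, plus strand: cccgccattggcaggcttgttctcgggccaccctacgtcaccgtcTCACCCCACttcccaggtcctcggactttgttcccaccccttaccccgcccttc

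Genes of amino acid supply that ATF4 controls went the opposite way. ATF4 is the effector of the integrated stress response and of amino acid shortage. Of 21 members, 11 were higher in MC011, 0 in MC010 and 10 were not called, with a median of -0.60, and all 21 had an adjusted p under 0.05 with a negative difference. The called share was 52.4%, beside 32.6% of all genes. Asns, asparagine synthetase, had 75.7 and 78.3 CPM in MC010 and 177 and 189.8 CPM in MC011 (log2 difference -1.25, SE 0.049, adjusted p = 1.12e-12). Trib3 had 8.45 and 8.31 CPM in MC010 and 29.7 and 31.1 CPM in MC011 (log2 difference -1.86, SE 0.066, adjusted p = 3.47e-13). Slc7a5 (129 against 251 CPM) and Slc1a5 (112 against 176 CPM), amino acid transporters, Atf5 (43.03 against 93.6 CPM), Ddit3 (6.82 against 13.2 CPM), Pycr1 (8.15 against 20.1 CPM) and Atf3 (2.84 against 4.76 CPM) were higher in MC011. Atf4 itself was at 273 against 352 CPM (-0.37 on the log2 scale), and Psat1, Phgdh and Shmt2, of serine and one-carbon synthesis, fell short of the size threshold. In MC654 and MC659 the mean of Asns was 281 and 293 CPM.

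The C/EBP-ATF response element, TGATGNAA on either strand, was found in the window of 4 of 19 members (Asns, Atf3, Chac1 and Pycr1), all 4 called higher in MC011, and in 2.44% of 11022 tested genes with a window. These windows are printed 5′ to 3′ on the strand of the gene, with the match in capitals, which reads TTNCATCA where the element lies on the other strand.
Asns, chr6:7693210-7693277, minus strand: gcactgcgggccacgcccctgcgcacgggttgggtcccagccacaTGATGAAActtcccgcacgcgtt
Atf3, chr1:191183391-191183488, minus strand: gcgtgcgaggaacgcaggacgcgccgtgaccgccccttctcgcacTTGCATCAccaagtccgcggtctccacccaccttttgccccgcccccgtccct
Chac1, chr2:119351004-119351101, plus strand: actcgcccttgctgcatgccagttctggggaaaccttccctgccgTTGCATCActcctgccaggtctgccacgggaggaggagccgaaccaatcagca
Pycr1, chr11:120643799-120643896, minus strand: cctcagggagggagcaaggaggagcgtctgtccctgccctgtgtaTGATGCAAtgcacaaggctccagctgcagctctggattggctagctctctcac

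Glycolysis genes showed no common direction, with 4 of 24 higher in MC010, 5 in MC011 and a median of -0.13, and their called share of 37.5% lay near that of all genes. Ldha was at 855 against 1437 CPM and Ldhb at 41.4 against 10.2 CPM, so that the lactate dehydrogenase subunits went opposite ways, and the glucose transporter Slc2a3 had 1.16 and 0.952 CPM in MC010 and 12.5 and 13.04 CPM in MC011. Gapdh (3585 against 2981 CPM), Pkm (4169 against 3369.5 CPM) and Slc2a1 (116 against 99.6 CPM) were not called.

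Interferon-response genes were higher in MC010 for the most part. These genes are switched on by interferons or by sensing of foreign nucleic acid, and some of them belong to the genes that factors of the IRF family bind. Of 26 members, 65.4% were called, 16 higher in MC010 and 1 in MC011, and 9 were not called, with a median of 1.27. Oasl2 had 11.5 and 12.1 CPM in MC010 and 0.888 and 0.481 CPM in MC011 (log2 difference 4.06, SE 0.13, adjusted p = 1.3e-13). Ifih1, the RNA sensor MDA5, had 11.5 and 13.1 CPM in MC010 and 1.76 and 1.03 CPM in MC011 (log2 difference 3.11, SE 0.14, adjusted p = 7.46e-12), and Ddx58, the sensor RIG-I, had 29.3 and 28.1 CPM in MC010 and 10.2 and 11.9 CPM in MC011. Isg15 (12.9 against 2.91 CPM), Rsad2 (3.97 against 0.221 CPM), Usp18 (1.47 against 0.224 CPM), Irf7 (3.32 against 1.27 CPM) and Ifit1 (11.8 against 2.58 CPM) were higher as well. Ifit2 was the member higher in MC011 (24.5 and 26.1 CPM in MC010 and 41.1 and 43.1 CPM in MC011). Stat2 (21.8 against 16.3 CPM) and Irf9 (13.6 against 20.3 CPM) were not called, and without replicate 1 of either line 2 genes were higher in MC011. In MC654 and MC659 the means were 57.7 and 103 CPM for Oasl2 and 48.5 and 75.6 CPM for Isg15.

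Genes of antigen presentation by MHC class I were also higher in MC010 more often than in MC011. H2-K1, a classical class I heavy chain, had 104 and 99.04 CPM in MC010 and 12.6 and 12.8 CPM in MC011 (log2 difference 3.00, SE 0.062, adjusted p = 4.53e-16), and H2-D1 had 227 and 219 CPM in MC010 and 61.5 and 59.3 CPM in MC011 (log2 difference 1.88, SE 0.058, adjusted p = 5.36e-14). Psmb8 (6.97 and 6.31 CPM in MC010 and 0.145 and 0.203 CPM in MC011) and Psmb9 (1.46 against 0.136 CPM), subunits of the immunoproteasome, the peptide transporter genes Tap1 (7.73 against 1.30 CPM) and Tap2 (13.9 against 2.07 CPM), tapasin (Tapbp, 152 against 42.1 CPM) and Cd274, which encodes PD-L1 (1.36 against 0.404 CPM), were higher in MC010. In all, 8 of 15 members were higher in MC010, Calr was higher in MC011 (760.0 against 1294 CPM), and 6 were not called, with a median of 1.78. Of these members 60% were called, beside 32.6% of all genes. B2m, the light chain, was at 349 against 255 CPM and not called (log2 difference 0.45, SE 0.043, adjusted p = 1.02e-07), and neither was Nlrc5 (8.77 against 6.66 CPM), the class I transactivator. Of the 8 higher in MC010, the 7 other than Cd274 lie on chromosome 17, where the median difference over expressed genes was 0.31. The H2 genes are close copies, and the gene models of Psmb9 and Tap1 overlap, so their reads may be shared.

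Chemokines and cytokines went the other way, with 11 of 22 tested genes higher in MC011, 5 in MC010 and a median of -0.83. Of the tested members 72.7% were called, beside 32.6% of all genes. The monocyte attractants Ccl2 (57.3 and 58.3 CPM in MC010 and 191 and 194 CPM in MC011; log2 difference -1.74, SE 0.049, adjusted p = 2.02e-14) and Ccl7 (10.8 and 12.2 CPM in MC010 and 54.9 and 62.1 CPM in MC011; log2 difference -2.35, SE 0.087, adjusted p = 6.02e-13) and the neutrophil attractants Cxcl1 (7.74 against 20.4 CPM) and Cxcl5 (0.372 against 8.52 CPM) were higher in MC011, as were Cxcl16 (3.73 against 19.2 CPM) and Il34 (15.8 against 43.5 CPM). Spp1, osteopontin, had 1463 and 1482 CPM in MC010 and 346 and 385 CPM in MC011 (log2 difference 2.01, SE 0.052, adjusted p = 6.23e-15), and Cx3cl1 (91.4 against 35.9 CPM), Il33 (9.83 against 6.22 CPM), Il11 (4.31 against 2.32 CPM) and the interferon-induced Ccl5 (2.55 against 1.11 CPM) were higher in MC010. Csf1 was at 345 against 461 CPM and Cxcl12 at 87.1 against 111 CPM, not called.

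**Figure D4:**
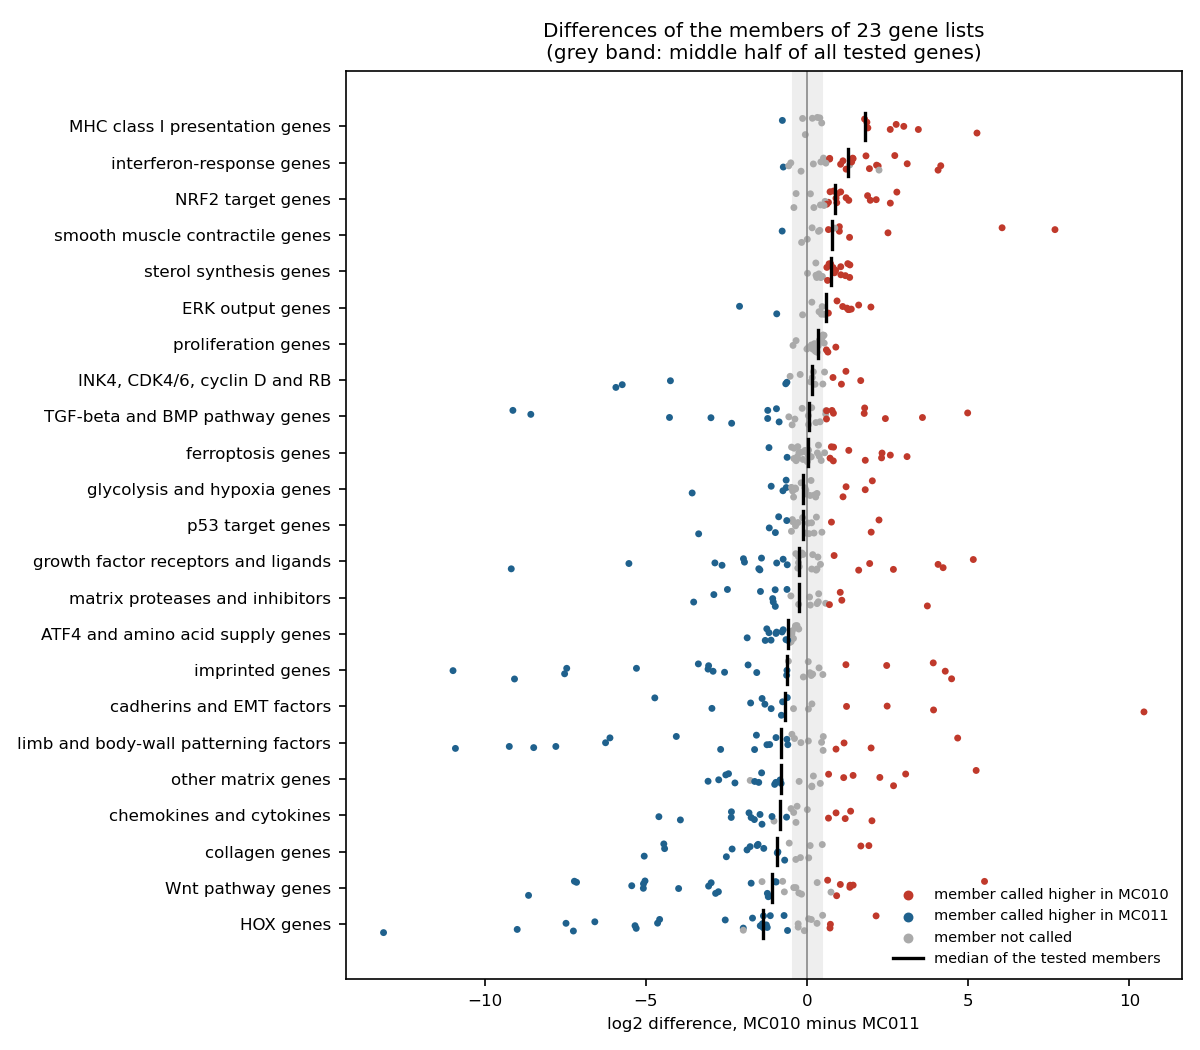
Log2 differences (MC010 minus MC011, x axis) of the tested members of 23 gene lists (rows, ordered by median), with a point for each member coloured by its call and a black bar at the median. Lists run from HOX genes (median -1.35) to MHC class I genes (1.78), and most lists hold called members on both sides of 0.

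Outside these lists, the widest differences at levels that are well measured fell on genes with no common role. Esm1, an endothelial and tumor proteoglycan, had 198 and 206 CPM in MC010 and 0.186 and 0.481 CPM in MC011 (log2 difference 9.30, SE 0.12, adjusted p = 3e-18), Msln, the surface antigen mesothelin, had 222 and 218 CPM in MC010 and 2.20 and 2.03 CPM in MC011 (log2 difference 6.70, SE 0.072, adjusted p = 4.28e-19), and Kcnab1, a potassium channel subunit, had 145 and 149.7 CPM in MC010 and 1.89 and 2.20 CPM in MC011 (log2 difference 6.18, SE 0.081, adjusted p = 2.7e-18). The pluripotency and neural factor Sox2 had 64.1 and 63.3 CPM in MC010 and 3.03 and 2.43 CPM in MC011. Scube3 (124 against 2.78 CPM), Pcdh17 (49.04 against 1.71 CPM) and Olfml2b (111 against 5.24 CPM) also belonged to the 15 widest differences in favour of MC010. In favour of MC011 stood Tubb3, the neuronal beta-tubulin (1.72 and 0.830 CPM in MC010 and 70.6 and 62.6 CPM in MC011; log2 difference -5.62, SE 0.17, adjusted p = 9.3e-13), Cd24a, a surface sialoglycoprotein (2.32 and 2.63 CPM in MC010 and 66.8 and 68.1 CPM in MC011), the receptor phosphatase Ptprf (6.92 against 188 CPM), the oncostatin M receptor Osmr (7.86 and 7.78 CPM in MC010 and 144 and 147 CPM in MC011), the prostaglandin transporter Slco2a1 (11.5 against 226 CPM), and prostacyclin synthase, Ptgis (3.73 against 49.3 CPM).

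Some genes were on in one line and at most at 3 counts, the floor, in each library of the other. With at least 500 counts required in both libraries of the line that expressed them, 8 genes were on in MC010 and 5 in MC011. Esp15, of the exocrine gland-secreted peptides, had 270.0 and 287 CPM in MC010 and 0 and 0 CPM in MC011, at least 8077-fold higher in MC010, and no read in any library of MC654 and MC659. Nmral1 (at least 899.7-fold) was also on in the WT-labelled lines, at 23.4 and 19.7 CPM, so that MC011 was the line without it. Rpl39l, Scg2, Slc5a7, Tinag and Crispld1 were among the others. The 5 on in MC011 were Gm53 (at least 562-fold), Hoxa11, Homer2 (at least 353-fold), Bend4 and Zic2, a zinc finger factor of the neural tube. The floor of 3 counts corresponds to between 0.0263 and 0.0408 CPM and covers counting error only.

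Called genes of the highest levels had varied roles. Hsp90ab1, a chaperone, stood at 7604 against 4315 CPM and Tpt1 at 2162 against 1276 CPM, and the retinoic acid binder Crabp1 had 3217 and 2867 CPM in MC010 and 949 and 891 CPM in MC011. Plec (735 against 1653 CPM), Ahnak (641 against 1480.1 CPM) and Atp5a1 (809 against 1363 CPM) headed the genes higher in MC011 beside Fn1 and Ldha. Genes with near-identical copies elsewhere (Hsp90ab1, Tpt1, Prdx1, Fth1, Krt18, Esp15, Rpl39l, and the Ifit, Trim, Speer and zinc finger families) are uncertain, since the counting may split or drop their reads.

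Called genes also lay next to each other. Runs of at least 5 tested neighbours all called in one direction numbered 22 for MC010 and 18 for MC011. The longest held 10 genes, from Hoxa4 to Hoxa13 on chromosome 6, all higher in MC011 (chr6:52189671-52260880, mm10), with a median of -4.61. Runs of 8 lay on chromosomes 11, 12, 14 and 17. That on chromosome 11, from Dnaic2 to Nat9, had differences up to 7.25 in favour of MC010. The run on chromosome 12, from Npc2 to Fcf1, includes Ltbp2 and was higher in MC011, and that on chromosome 17, which begins at Zfp983, consists mostly of zinc finger genes that were higher in MC010. A run of 7 on chromosome 7, from Trim6 to Trim30a, holds antiviral TRIM genes and was higher in MC010, and a run of 6 on chromosome 2, from Hoxd13 to Hoxd3, was higher in MC011.

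On a larger scale, the medians of some chromosomes lay away from 0. Over 10064 genes with a mean log2 CPM of at least 2, the median difference was -0.48 on chromosome 12, where 84.2% of 367 genes lay below 0, -0.36 on chromosome 18 and -0.33 on chromosome 13. On chromosome 17 it was 0.31, with 20.8% of 514 genes below 0. Chromosomes 7 (-0.14) and 4 (0.14) were shifted less, and all others lay between -0.027 and 0.081. Against the mean of the WT-labelled lines, the median of chromosome 12 was -0.32 in MC010 and 0.20 in MC011, that of chromosome 13 was -0.093 and 0.27, and that of chromosome 17 was 0.29 in MC010 and 0.0025 in MC011. Chromosome 15 was at 0.37 in MC010 and 0.38 in MC011 against those lines and so did not enter the difference between MC010 and MC011. Between MC654 and MC659 no chromosome's median was farther than 0.040 from 0. In windows of about 40 neighbouring expressed genes, 15 of 241 had a median below -0.4, all of them among the 24 windows on chromosomes 12, 13 and 18. The windows were not alike along chromosomes 13 and 18, since the last of chromosome 13 was at 0.067 and one in the middle of chromosome 18 at 0.12. On the other side 3 windows were above 0.4, the first of chromosome 4 (0.67), one on chromosome 19 (0.66) and the first of chromosome 17 (0.45), and 11 of the 12 windows on chromosome 17 were above 0.2. The windows and the medians against the other lines were added after the data had been seen. DNA copy number was not measured, and its part in these shifts was not tested.

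**Figure D5:**
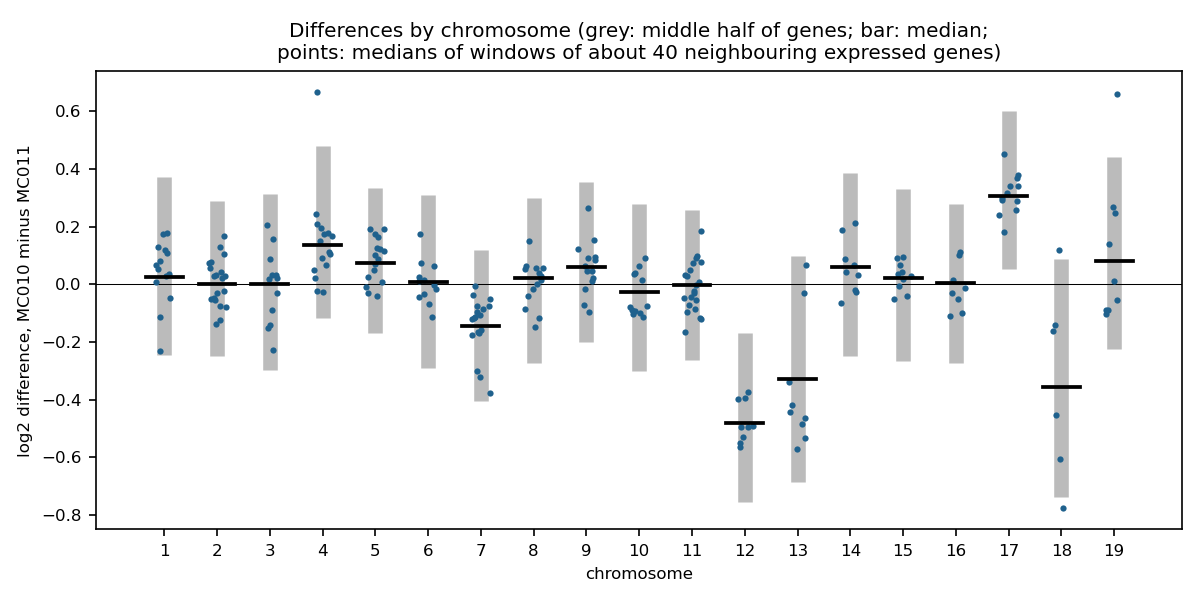
Log2 difference (MC010 minus MC011, y axis) of genes with a mean log2 CPM of at least 2 by chromosome (x axis), with the range between the quartiles in grey, the median as a bar and the medians of windows of about 40 neighbouring genes as points. Every window lies below 0 on chromosome 12 and above 0 on chromosome 17, whereas the windows of chromosomes 13 and 18 lie on both sides of 0.

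Named genes on these chromosomes went both ways. On chromosome 13, Pitx1, Bmp6 and Ror2 were higher in MC011 and Esm1, Fst, Inhba and Hmgcs1 in MC010. On chromosome 12, Ltbp2, Meg3 and Osr1 were higher in MC011 and Rsad2 and Etv1 in MC010. On chromosome 18, Pdgfrb, Cdh2 and Lox were higher in MC011 and Hbegf, Spry4 and Fbn2 in MC010. On chromosome 17, Msln, Scube3, Thbs2, Cdkn1a, Esp15 and Slc5a7 were higher in MC010 and Epcam in MC011 (adjusted p = 0.0031, and 0.063 without replicate 1 of MC011). These are examples, and other named genes lie on the same chromosomes.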

How the data were processed

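RNA sequencing libraries of cultured lines were grouped by the line named in their titles, with 2 libraries per line. The deposited table holds raw read counts per gene and library, which the authors made with STAR 2.7.3a and HTSeq 0.11.2 on mm10 (GRCm38.p6), per the submitters' processing notes. The methods of the study name other versions of these tools. The smallest count of a gene summed over the 8 libraries was 20. Whether reads were counted by strand is not given in the sources used here. The same deposited table holds the counts scaled by size factors (normalized signal), and the authors' DESeq2 comparison by genotype (mean signal, log2 fold change, Wald statistic as a score, p-values), which were not used here.

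The raw counts were analysed in R 4.3.3 with edgeR 4.0.16 (limma 3.58.1). Genes were kept by filterByExpr with the line as the group, libraries were scaled by TMM, and a quasi-likelihood model with robust dispersion and 1 group per line was fitted to all 8 libraries. MC654 and MC659 entered the filter, the scaling and the estimate of the spread, but not the contrast. Genes were called at a Benjamini-Hochberg adjusted p under 0.05 and a log2 difference past 0.59. The SE printed with a log2 difference was worked back from the test, as the size of the difference over the square root of the F statistic. No gene of chromosomes X and Y was analysed here, and some genes that meet the rule for naming are not reported here. Depth ran from 74063616 to 116206078 counts in the libraries compared, and a floor of 3 counts per library, for counting error only, equals 0.0263 to 0.0408 CPM. On simulated counts for this comparison with 16295 genes tested, 87 of 100 genes changed by 1 on the log2 scale were recovered, as were 100 of 100 changed by 2, with 4 false calls among 16095 unchanged genes. Changed genes were drawn above a minimum expected count, and were a smaller share than was called in the data. The simulated spread came from these same libraries. The recovery thus does not cover genes of low counts, and neither rate covers a spread between separate cultures.

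The lines and the gene lists were chosen with earlier results of these data known. Genes were named if they were members of a list or marker list, Irf8 or Trp53, among the 15 widest differences in a direction with no overlap of libraries and a log2 CPM averaging 3 or more, at the floor in one line, in the longest runs of called neighbours, or among the 5 called genes of the highest level in a direction. For 10 rows whose symbol repeated in the table, the symbol was taken from the reference by gene identifier. The HOX split by paralog, the neighbours of Cdkn2a and Myc, the 40-gene windows, the medians against the WT-labelled lines and the promoter motifs were chosen after seeing the data. Alternatives were other scalings, other filters on low counts, a fit of 4 libraries, a replicate block, leaving out each library, thinned counts, other thresholds and DESeq2 1.42.0.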

Additional observations from a re-analysis of the deposited data

How the results depend on the processing

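The numbers of genes higher in MC010 (2728) and of genes higher in MC011 (2719) were 2719 and 2721 in a fit of the 4 libraries alone, 2726 and 2721 with relative log expression factors, 2677 and 2771 with upper-quartile scaling, 2376 and 2417 with the filter by genotype label, 2800 and 2798 with no filter, 2686 and 2665 with thinned counts, and 2556 and 2595 with DESeq2, which shared 5041 of its 5151 calls with edgeR. Scaling by library size alone moved the median over all genes to -0.042 and gave 2536 and 2925. With the replicate block they were 2712 and 2696. The replicate numbers did not pair the libraries, since the correlation of same-numbered deviations lay between -0.032 and 0.045, and so the libraries share only a number. Without 1 library at a time, 2469 to 2603 genes were higher in MC010 and 2523 to 2560 in MC011.

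Of the counts of genes, list members, floor genes and runs over all settings, 912 stayed within 1.5 times of the value reported and 56 did not, most of them under another threshold. With no threshold on size, the genes higher in MC010 numbered 5094 and the genes higher in MC011 numbered 5090, and with a difference above 1 on the log2 scale the latter were 1798. With no threshold on size the counts higher in MC010 became 5 for p53 targets, 8 for the INK4 and RB list, 17 for proliferation, 7 for proteases, 5 for HOX, 12 for growth factors and receptors, 15 for ERK output, 14 for TGF-beta and BMP, and 7 for glycolysis. Those higher in MC011 became 10 for p53 targets, 10 for ferroptosis, 12 for glycolysis, 21 for ATF4, and 2 each for NRF2 targets, proliferation, interferon response, MHC class I and smooth muscle. With a difference above 1 the counts higher in MC010 were 8 for NRF2 targets, 0 for proliferation, 3 for chemokines, 1 for HOX, 5 for TGF-beta and BMP, 6 for ferroptosis and 6 for sterol synthesis. Those higher in MC011 were 2 for p53 targets, 3 for the INK4 and RB list, 1 for ERK output, 1 for ferroptosis, 2 for glycolysis, 5 for ATF4, 1 for Schwann and neural markers, and 0 for interferon response, MHC class I and smooth muscle. The filter by genotype label removes genes expressed in 1 line alone, and under it 4 skeletal muscle markers and 0 hematopoietic markers were higher in MC010 and 0 skeletal muscle markers in MC011. Under the same filter the counts higher in MC011 were 17 for HOX, 10 for limb and body-wall factors, 11 for imprinted genes and 14 for Wnt. With library size alone, 2 interferon-response genes were higher in MC011. Leaving out 1 library at a time, the counts higher in MC011 ranged from 1 to 2 for interferon response, from 0 to 1 for hematopoietic markers, from 3 to 5 for p53 targets and from 1 to 2 for ferroptosis. Genes on in MC010 alone numbered 22 with at least 200 counts required and 5 with at least 1000, and those on in MC011 alone 20 and 2. Runs of called neighbours numbered 55 and 37 at a length of at least 4, and 9 and 10 at a length of at least 6.

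Genes that were not called, with differences near 0, changed sign. Gpx4 was at -0.0029 in the fit of 4 libraries, -0.0085 with upper-quartile scaling, -0.043 with library size alone and between -0.036 and 0.038 without 1 library. Srebf2 was at -0.0027 with upper-quartile scaling, -0.038 with library size alone and between -0.064 and 0.090 without 1 library. With library size alone Tbx3 was at -0.011 and Twist1 at -0.0087. Without 1 library, Csf1r ranged from -0.65 to 0.23, Mki67 from -0.053 to 0.033 and Tbx3 from -0.00080 to 0.078. Mcm5 fell below the size threshold with upper-quartile scaling (0.58) and library size alone (0.55). Apart from the values given here, the cause of each change was not tested.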
